A study of Mus musculus with 9 samples.

Results

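Transcription factors that mark basal-like breast cancer were examined in mammary tumors of BRCA-deficient mice treated with Talazoparib (TLZ), a PARP inhibitor. The 8 genes were *Bcl11a*, *Bcl11b*, *Sox10*, *Sox11*, *Foxc1*, *En1*, *Id4* and *Trp63*, taken as the rows of the count table whose Ensembl identifiers map to these symbols. They are 8 of 35275 genes listed, and all 8 are among the 15821 genes with enough counts to be tested. Every mouse had the genotype Brca1Co/Co;MMTV-Cre;p53+/-, in which the MMTV promoter drives Cre mainly in mammary epithelium, so the floxed *Brca1* is lost there while 1 copy of p53 is missing in the whole animal. Treatment began at a tumor diameter of 4 to 5 mm and consisted of 5 doses, 3 times a week, of saline, of free drug in solution (i.v. TLZ, or free drug) or of drug in liposomal nanoparticles (NanoTLZ), with 0.33 mg/kg of Talazoparib per dose in both drug groups. Each group had 3 tumors from as many mice. No age is given. Tumors treated with empty nanoparticles were not analysed here, nor was wild-type tissue against which the genotype could be checked.

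Basal-like breast cancers, which include most tumors with *BRCA1* mutations, lack hormone receptors and express keratins and transcription factors of basal or progenitor cells. *Bcl11a* and *Bcl11b* encode paralogous zinc finger repressors, the first known from globin silencing and B cell development and the second from T cell commitment. *Sox10* and *Sox11* encode HMG box factors of the SoxE and SoxC families, *Foxc1* a forkhead factor and *En1* a homeobox factor of midbrain and limb patterning. *Id4* encodes a helix-loop-helix protein without a DNA-binding region, which holds E proteins away from their E-box sites. *Trp63* encodes p63, the p53 relative that maintains the basal layer of stratified and glandular epithelia.

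Start regions of 4 of these genes are shown because *Bcl11a*, *Sox11* and *En1* were the ones whose groups did not overlap in a comparison with saline, and *Id4* was the one with the widest range over the tumors. The sequences are from RefSeq on GRCm38.p6, which held a start region for 6 of the 8 genes and not for *Sox10* and *Trp63*. Each runs 5′ to 3′ on the strand of its gene, ends at or before the start of transcription and holds no annotated exon, and that of *Bcl11a* lies within the span of its gene model. Capitals mark E-boxes, the letters CANNTG on either strand, to which E proteins and other basic helix-loop-helix factors can bind.
Bcl11a, chr11:24080445-24080669, plus strand: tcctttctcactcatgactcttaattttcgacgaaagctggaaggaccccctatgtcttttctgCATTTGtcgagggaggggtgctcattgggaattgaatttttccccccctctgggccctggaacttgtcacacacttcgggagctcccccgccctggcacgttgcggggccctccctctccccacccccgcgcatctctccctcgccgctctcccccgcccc
Sox11, chr12:27342719-27342968, minus strand: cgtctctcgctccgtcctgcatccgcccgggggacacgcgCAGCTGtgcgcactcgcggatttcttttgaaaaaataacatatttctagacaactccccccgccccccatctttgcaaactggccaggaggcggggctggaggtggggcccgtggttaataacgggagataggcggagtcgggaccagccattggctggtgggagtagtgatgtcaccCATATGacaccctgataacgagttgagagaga
En1, chr1:120602237-120602417, plus strand: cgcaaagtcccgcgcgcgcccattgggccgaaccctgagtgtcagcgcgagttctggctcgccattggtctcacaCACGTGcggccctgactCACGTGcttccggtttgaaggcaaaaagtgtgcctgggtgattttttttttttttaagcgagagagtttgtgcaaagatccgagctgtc
Id4, chr13:48260866-48261115, plus strand: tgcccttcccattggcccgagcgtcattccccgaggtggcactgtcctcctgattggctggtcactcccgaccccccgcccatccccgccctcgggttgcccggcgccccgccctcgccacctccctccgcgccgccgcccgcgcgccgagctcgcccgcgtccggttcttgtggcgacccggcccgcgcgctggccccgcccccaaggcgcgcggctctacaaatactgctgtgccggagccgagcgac
An E-box was found in 66.2% of 32851 start regions of 250 bases, so its presence is common and is a description of the letters, not a site of binding. The *Id4* region had none, and none was found for *Bcl11b* or *Foxc1* in their 250 bases either. *Id4* had 35 CpG in 250 bases and *Foxc1* 29, against a median of 6 over all start regions. *Bcl11b* had 9 CpG, and *Bcl11a*, *Sox11* and *En1* had 16, 17 and 19.

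Between 17538380 and 21194980 reads were counted on genes in each tumor. Levels are given as CPM, the counts scaled to the TMM-corrected size of each library. Saline tumor A3688 stood apart from the rest. It was the highest of the 9 tumors for 25.7% of all tested genes and for 5 of these 8, *Bcl11a*, *Sox10*, *Foxc1*, *Id4* and *Trp63*. Its summed CPM of 12 proliferation genes was 2597, against 461 to 1474 in the other tumors, and that of 12 skeletal muscle genes was 783, against 18.5 to 238. Each fold change of the 8 factors against saline is therefore also given without this tumor, an alternative chosen after seeing the data. The same holds for each median of a gene list against saline and each count of its genes at an unadjusted p under 0.05. As markers of the labelled tissue, the epithelial keratins *Krt8* and *Krt18* were at 738 to 2623 CPM and 499 to 1867 CPM, and *Epcam* was at 604 to 1368 CPM. Whole tumors were sequenced, so fewer cells of a type and less RNA per cell cannot be told apart.

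Per kilobase of merged exon, a scale on which levels of different genes can be compared, *Sox10* was by far the most abundant of the 8, with a median of 161 CPM per kb over the 9 tumors. *Foxc1* followed with 32.6, and *Sox11*, *Bcl11b* and *Id4* had 2.10, 2.07 and 1.42. *Trp63*, *Bcl11a* and *En1* were below 1, with 0.947, 0.497 and 0.256 CPM per kb. Only the lead of *Sox10* over *Foxc1* and of *Foxc1* over the rest can be read tumor by tumor, apart from *Id4* in A3688, since the ranges of the 6 lower genes overlapped. The genes also differed in how even they were. From the lowest to the highest tumor, CPM spanned 2.32-fold for *Foxc1* and 3.36-fold for *Sox10*, but 68.5-fold for *Trp63* and 195-fold for *Id4*.

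**Figure D1:**
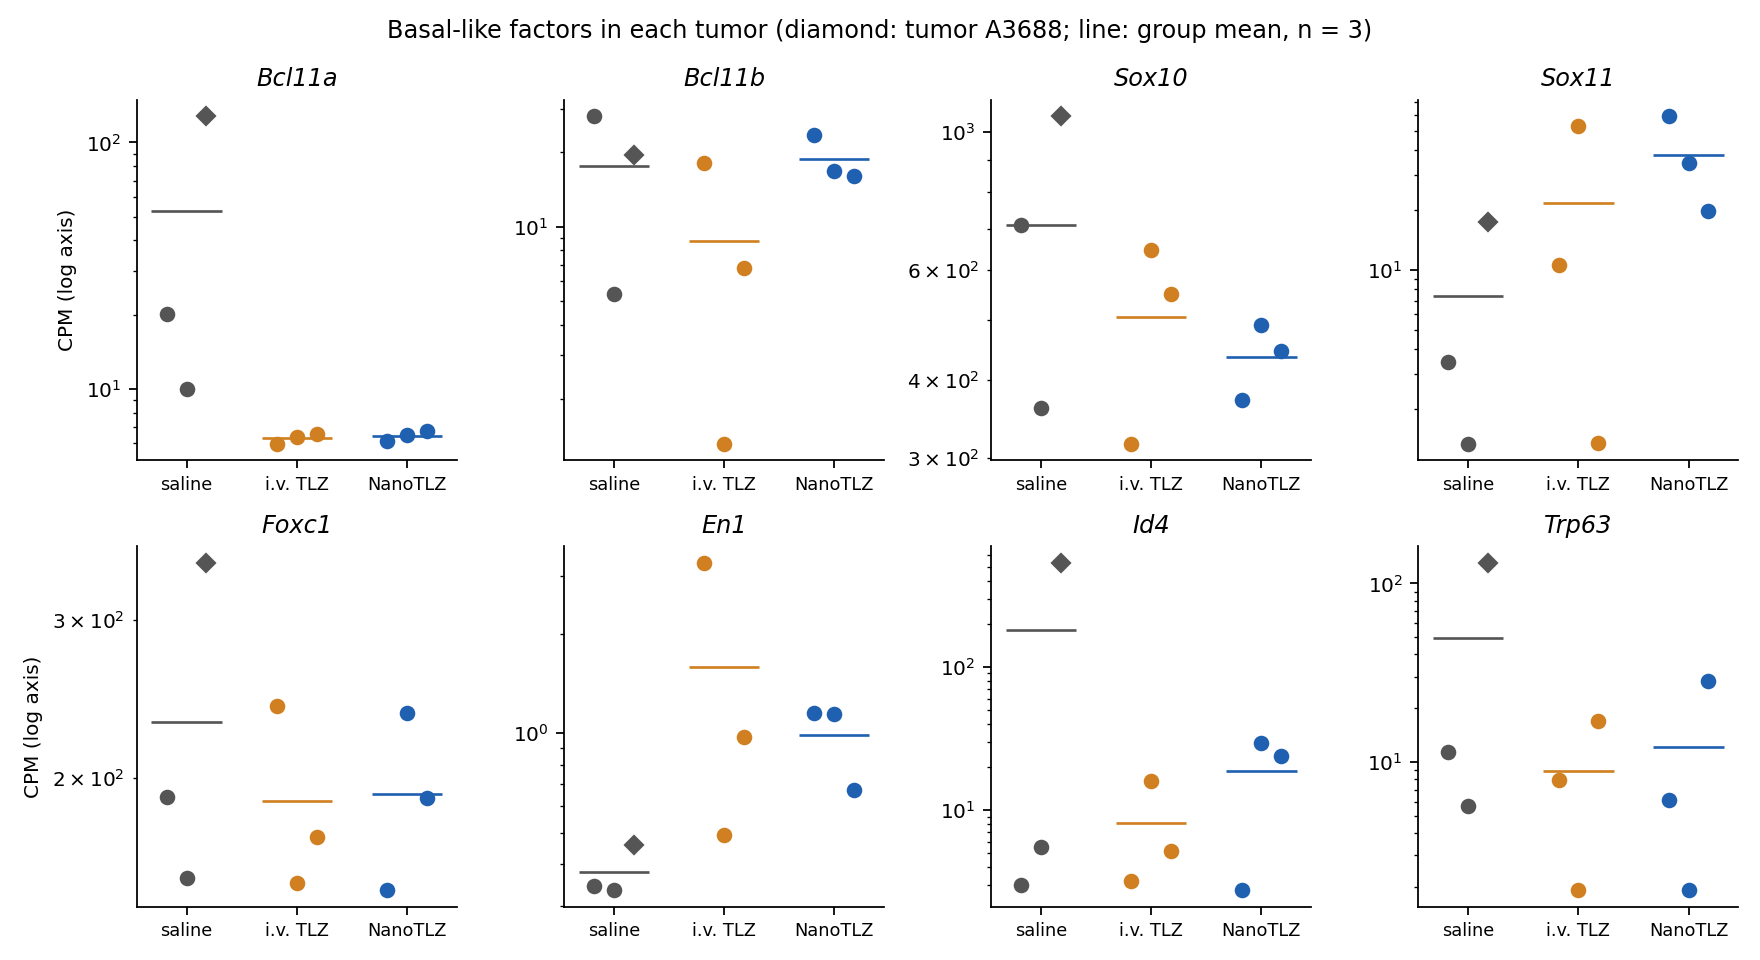
CPM of each of the 8 factors in each tumor on log axes, 1 panel per gene, with saline in grey, i.v. TLZ in orange and NanoTLZ in blue, a diamond for saline tumor A3688 and a line for the mean of 3 tumors. The 6 treated tumors lie between 5.96 and 6.73 CPM for *Bcl11a*, below every saline tumor, and A3688 is the top point for *Bcl11a*, *Sox10*, *Foxc1*, *Id4* and *Trp63*.

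*Bcl11a*, the repressor that the study itself singled out from these same tumors, was lower in every treated tumor than in every saline tumor. The gene (ENSMUSG00000000861) lies on chromosome 11 from 24078056 to 24174123 on the plus strand of GRCm38, the build of all positions given here. Saline tumors A3673, A3685 and A3688 had 20.2, 9.96 and 128 CPM. After i.v. TLZ, tumors B3638, B3684 and B3700 had 5.96, 6.40 and 6.55 CPM, and after NanoTLZ, C3519, C3669 and C3698 had 6.11, 6.49 and 6.73 CPM. The saline tumors were thus far apart, with A3688 12.8-fold above A3685, and the treated tumors were almost level with one another. The saline mean was 52.7 ± 65.3 CPM, and the means with free drug and with NanoTLZ were 6.30 ± 0.303 and 6.44 ± 0.309 CPM (SD, n = 3 each).

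The log2 fold change of *Bcl11a* by edgeR was -3.06 after i.v. TLZ (SE 0.80, adjusted p = 0.417) and -3.03 after NanoTLZ (SE 0.80, adjusted p = 0.552). For both treated groups jointly it was -3.05 (SE 0.62, adjusted p = 0.215). None of these passed the adjusted threshold of 0.05 in edgeR. DESeq2 on the same 9 tumors called *Bcl11a*, with an adjusted p of 0.00752 after i.v. TLZ and 0.0151 after NanoTLZ. It called 1.13% and 0.55% of all genes it tested in these comparisons, and none of the other factors for which it gave a p-value. Without A3688 the edgeR fold changes shrank to -1.24 (SE 0.38, adjusted p = 0.449) and -1.19 (SE 0.38, adjusted p = 0.668), and the treated tumors still lay below both remaining saline tumors. DESeq2 was not run against saline without A3688.

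After treatment *Bcl11a* was more even than other genes of its level, a pattern noticed in the values and not tested. Its counts in the 6 treated tumors were 123, 117, 121, 127, 119 and 130, a mean of 123. The coefficient of variation of CPM was 4.47% over these tumors, below the 9.02% that counting error alone gives at this mean. It was the lowest of the 2796 tested genes with a mean within 2-fold, whose median was 35.2%. Between the treated groups the log2 difference was 0.03 (NanoTLZ minus i.v. TLZ, SE 0.75, adjusted p = 0.9999 by edgeR). The annotated antisense genes that overlap *Bcl11a* had 6 and 27 counts over all 9 tumors together.

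**Figure D2:**
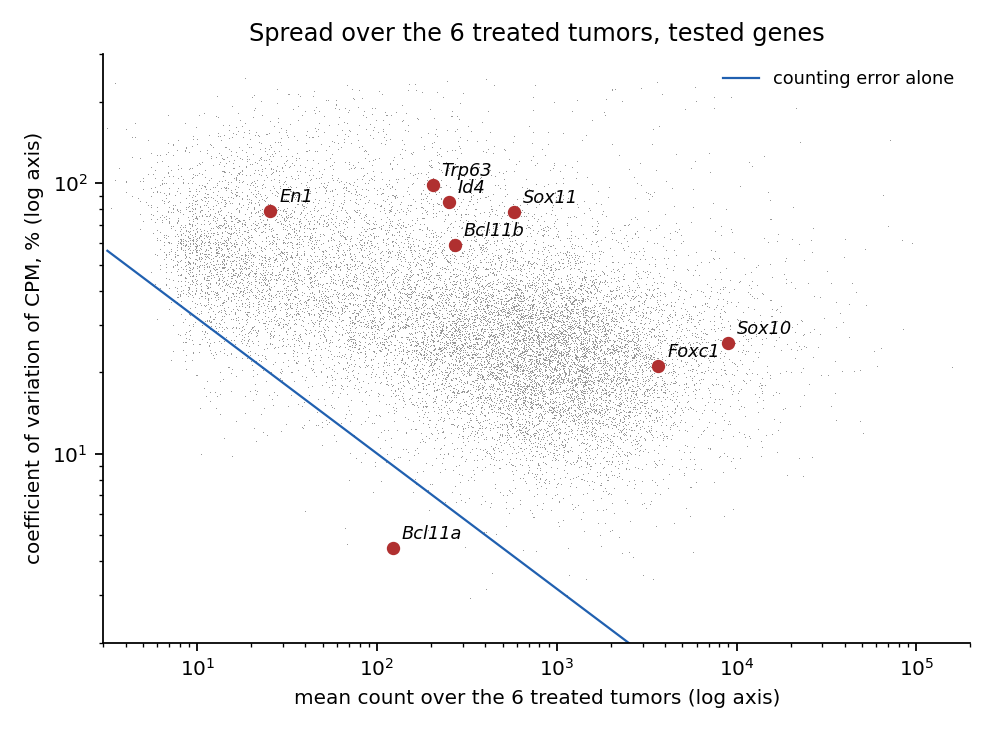
Coefficient of variation of CPM in percent against the mean count over the 6 treated tumors, both on log axes, with 1 grey dot per tested gene, the 8 factors in red and a blue line for the spread that counting error alone would give. *Bcl11a* lies below the line at 4.47%, and the other 7 factors lie above it.

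Because *Bcl11a* is also a gene of B cells and plasmacytoid dendritic cells, markers of these cells were read beside it. The summed CPM of 10 such markers was 1.89 to 5.55 in the saline group, 2.11 to 9.16 with free drug and 3.06 to 19.0 with NanoTLZ, and 4 of the 10 had enough counts to be tested. The highest saline value was that of A3688, which also had the most *Bcl11a*. All 12 proliferation genes had a negative log2 fold change in both comparisons with saline, and A3688 was the highest tumor for 10 of them. With free drug 10 were lower at an unadjusted p under 0.05, beside 5.47% of all tested genes, and with NanoTLZ 9 were, beside 5.49%. Without A3688 there were 3, beside 4.19%, and 1, beside 3.26%, and 12 and 11 of the genes still had a negative value. *Top2a*, a gene of this list, had been singled out by the study from these same tumors. The part of either list in the *Bcl11a* result was not tested.

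*Bcl11b*, the paralog of *Bcl11a* (ENSMUSG00000048251, chromosome 12, 107910403 to 108003602, minus strand), did not follow it. Saline tumors had 28.04, 5.34 and 19.5 CPM, in the order A3673, A3685 and A3688. With free drug, B3638, B3684 and B3700 had 18.1, 1.31 and 6.82 CPM, and the NanoTLZ tumors C3519, C3669 and C3698 had 23.5, 16.8 and 16.0 CPM. The 3 groups overlapped, and A3688 was not the highest tumor. By edgeR, *Bcl11b* had a log2 fold change of -1.01 for i.v. TLZ (SE 0.81, adjusted p = 0.665) and 0.09 after NanoTLZ (SE 0.80, adjusted p = 0.980), and without A3688 it was -0.92 and 0.21. Over the 9 tumors, log2 CPM of the 2 paralogs had a Pearson r of 0.29 and a Spearman rho of 0.13. The summed CPM of 10 T cell markers, cells in which *Bcl11b* is known to be expressed, was 8.30 to 21.8 in the saline group, 8.97 to 32.3 with free drug and 22.2 to 46.5 with NanoTLZ. The part of T cells in the *Bcl11b* level was not tested.

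*Sox10*, a neural crest factor that also marks progenitor-like mammary cells, was abundant in every tumor. The gene (ENSMUSG00000033006) lies on chromosome 15 from 79154908 to 79165240 on the minus strand. It had 709, 361 and 1060 CPM in saline tumors A3673, A3685 and A3688. It was at 316, 647 and 550 CPM in B3638, B3684 and B3700 after free TLZ, and at 372, 490.1 and 445 CPM in NanoTLZ tumors C3519, C3669 and C3698. The treated tumors all lay within or below the saline range, and the groups overlapped through A3685. EdgeR gave a log2 fold change of -0.49 for i.v. TLZ (SE 0.42, adjusted p = 0.693) and -0.70 after NanoTLZ (SE 0.42, adjusted p = 0.618), and without A3688 it was -0.07 and -0.26. Markers of Schwann cells and melanocytes, which also express *Sox10*, summed to 93.9 to 271 CPM, and 3 of these 12 markers had at most 3 counts in every tumor. The *Sox10* paralogs of the SoxE family took the other direction in A3688. *Sox9*, the cartilage factor, was at 70.1 CPM there against 128 to 322 elsewhere, and *Sox8* was at 8.62 against 11.5 to 25.9.

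*Sox11*, a factor of embryonic progenitors (ENSMUSG00000063632, chromosome 12, 27334264 to 27342574, minus strand), lay above the whole saline group in the 3 NanoTLZ tumors. Saline tumors had 3.43, 1.33 and 17.5 CPM, in the order A3673, A3685 and A3688, and the NanoTLZ tumors C3519, C3669 and C3698 had 59.5, 34.4 and 19.9 CPM. The free-drug tumors were scattered over the whole range, with 10.6 CPM in B3638, 53.4 in B3684 and 1.35 in B3700. The gap between the NanoTLZ and saline groups was narrow, from 17.5 to 19.9 CPM, and A3688 bounded it. The edgeR log2 fold change was 2.35 after NanoTLZ (SE 1.19, adjusted p = 0.573) and 1.55 after i.v. TLZ (SE 1.16, adjusted p = 0.642). Without A3688 these were 4.03 (SE 1.33, adjusted p = 0.681) and 3.22 (SE 1.28, adjusted p = 0.496), and without i.v. TLZ tumor B3684 the second was -0.32. The SoxC relative *Sox4* was at 274 to 501 CPM and *Sox12* at 15.6 to 63.4 CPM, both overlapping between groups.

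*Foxc1*, the forkhead factor used as a marker of basal-like tumors (ENSMUSG00000050295, chromosome 13, 31806633 to 31812476, plus strand), was the most even of the 8 over all tumors. Saline tumors A3673, A3685 and A3688 had 190.4, 155 and 348 CPM, free-drug tumors B3638, B3684 and B3700 had 241, 153 and 172 CPM, and the NanoTLZ tumors C3519, C3669 and C3698 had 150.0, 237 and 190.2 CPM. Apart from A3688, the saline tumors lay between 155 and 190.4 CPM, inside the treated range of 150.0 to 241, with B3638 and C3669 above both. *Foxc1* had a log2 fold change of -0.29 with free drug (SE 0.36, adjusted p = 0.798) and -0.26 after NanoTLZ (SE 0.36, adjusted p = 0.829) by edgeR, and it turned to 0.14 and 0.19 without A3688.

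*En1*, the homeobox factor, was close to the limit of what this depth can show (ENSMUSG00000058665, chromosome 1, 120602418 to 120607992, plus strand). Saline tumors A3673, A3685 and A3688 had 6, 7 and 10 counts. Free-drug tumors B3638, B3684 and B3700 had 68, 9 and 18 counts, and the NanoTLZ tumors C3519, C3669 and C3698 had 24, 21 and 13. Scaled to depth, these were 0.334 to 0.459 CPM with saline, 0.492 to 3.30 with free drug and 0.673 to 1.16 with NanoTLZ, so the treated tumors all exceeded the saline tumors, in B3684 by a margin of 0.492 against 0.459 CPM. In edgeR, *En1* had a log2 fold change of 2.05 for i.v. TLZ (SE 0.73, adjusted p = 0.443) and 1.37 after NanoTLZ (SE 0.73, adjusted p = 0.583). *En1* passed the filter on low counts through treated tumors alone, so its direction is partly set by the filter. Without A3688 the values were 2.22 and 1.56, and without B3638 the value after i.v. TLZ was 0.94. The paralog *En2* had too few counts to be tested, at 0 to 0.291 CPM.

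*Id4*, the inhibitor of E proteins (ENSMUSG00000021379, chromosome 13, 48261228 to 48266026, plus strand), was dominated by 1 tumor. A3688 had 11669 counts or 535 CPM, while the other saline tumors A3673 and A3685 had 2.98 and 5.48 CPM. After free TLZ, B3638, B3684 and B3700 had 3.20, 16.1 and 5.19 CPM, and the NanoTLZ tumors C3519, C3669 and C3698 had 2.74, 29.4 and 23.7 CPM. The remaining saline tumors lay among the lower treated tumors. *Id4* had an edgeR log2 fold change of -4.47 for i.v. TLZ (SE 1.77, adjusted p = 0.449) and -3.28 after NanoTLZ (SE 1.67, adjusted p = 0.573). Without A3688 the sign turned, to 0.96 (SE 0.96, adjusted p = 0.766) and 2.16 (SE 1.01, adjusted p = 0.755). DESeq2 gave no p-value for *Id4* against saline. Reads of *Id4* and of its antisense neighbor A330033J07Rik, with 211 counts over all tumors, cannot be told apart if the counting ignored strand, which is not given in the sources used here.

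*Id1* and *Id3*, relatives of *Id4*, were low in the tumor where it was high. In A3688, *Id1* was at 7.20 CPM and *Id3* at 13.0 CPM, the lowest of the 9 tumors for both, against medians of 57.5 and 43.9 CPM in the others, although *Id3* was hardly higher in A3673, at 13.5 CPM. *Id2* was at 43.7 CPM in A3688, inside its range of 17.6 to 71.9 elsewhere. The E protein gene *Tcf3* was highest in A3688, with 407 CPM against 131 to 268, and *Tcf4* and *Tcf12* were within their ranges in the other tumors. These are values of 1 tumor, with no replicate.

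**Figure D3:**
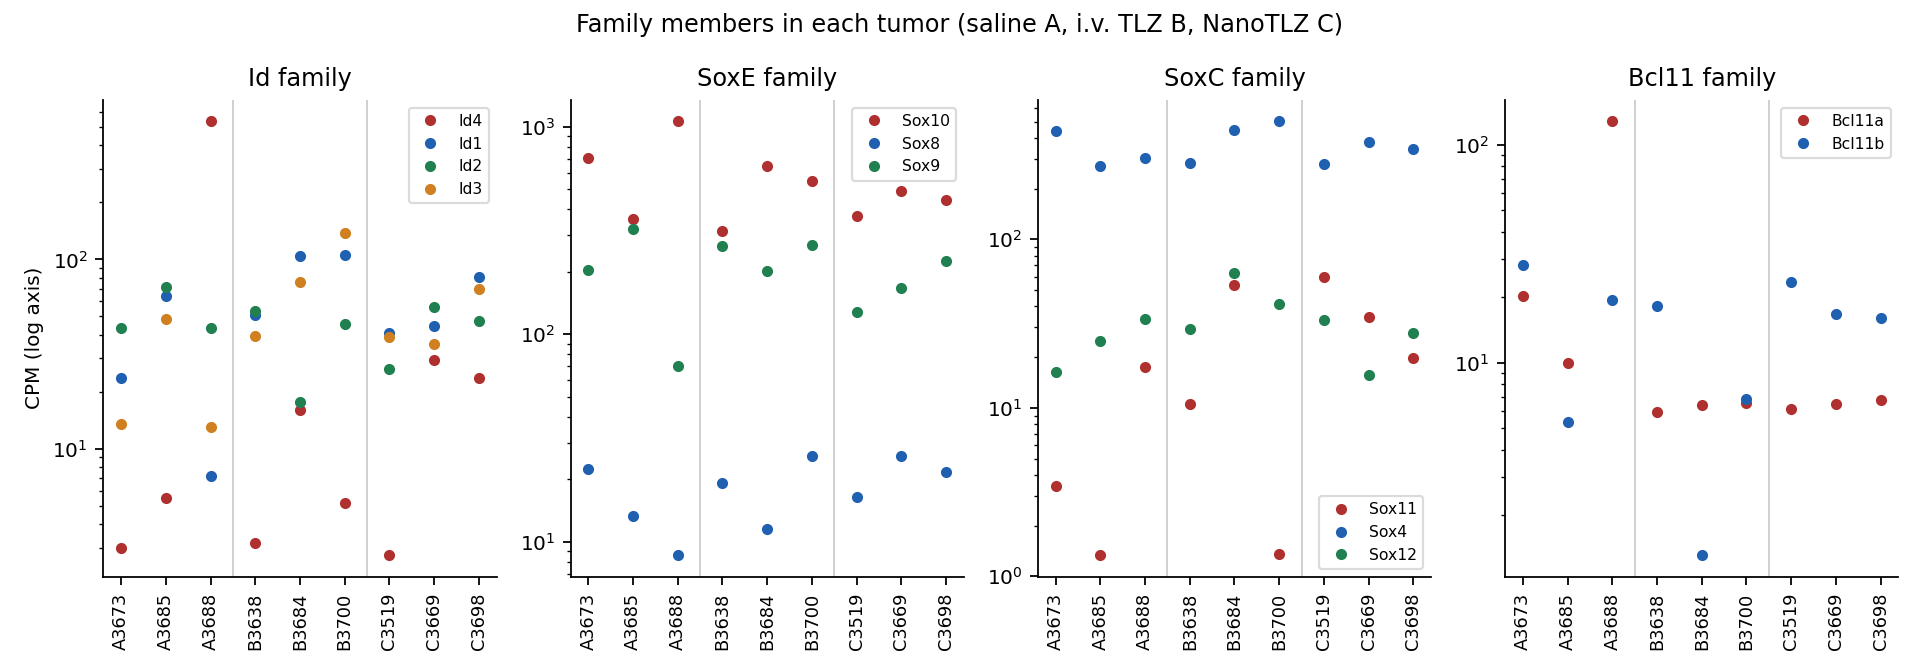
CPM on a log axis of the members of the Id, SoxE, SoxC and Bcl11 families in each of the 9 tumors, in the order saline (A), i.v. TLZ (B) and NanoTLZ (C). *Id4*, *Sox10*, *Sox11* and *Bcl11a* are in red, and *Bcl11b*, also a factor examined here, is in blue. In A3688, *Id4* is at 535 CPM and *Id1* at 7.20, and *Sox10* is at its highest where *Sox9* is at its lowest.

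*Trp63*, the basal epithelial factor (ENSMUSG00000022510, chromosome 16, 25683763 to 25892102, plus strand), was also highest in A3688. Saline tumors A3673, A3685 and A3688 had 11.4, 5.67 and 131 CPM. Values of 7.95, 1.91 and 16.9 CPM were found in free-drug tumors B3638, B3684 and B3700, and the NanoTLZ tumors C3519, C3669 and C3698 had 6.11, 1.91 and 28.5 CPM. Both treated groups reached below and, in B3700 and C3698, above the saline tumors A3673 and A3685. For *Trp63*, edgeR gave a log2 fold change of -2.47 for i.v. TLZ (SE 1.30, adjusted p = 0.528) and -2.02 after NanoTLZ (SE 1.28, adjusted p = 0.624), and without A3688 it was 0.07 and 0.54. Counts per gene do not separate the isoforms of p63 with and without the transactivation domain. The p53 relative *Trp73* was at 25.6 CPM in A3688 and at most 0.595 CPM in any other tumor, which left it below the filter for testing.

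Genes of basal cells and their adhesion, several of them known targets of p63, did not all stand out in A3688. *Krt5*, the keratin of basal cells, was at 1849 CPM there against a median of 6.16 in the other 8 tumors, and the cell adhesion gene *Cdh3* was at 125 CPM against 0.953 to 12.8. Also highest in A3688 were *Krt15*, at 152 CPM against at most 4.23 elsewhere, *Perp*, at 705 against 115, and *Jag2*, at 314 against 67.6. So were *Col17a1*, at 314 CPM against at most 79.9 elsewhere, and *Dsg3*, at 149 against 78.3. *Krt14*, the usual partner of *Krt5*, was at 802 CPM in A3688, inside its range of 122 to 2584 in the others. Other genes of the list were lowest in A3688. *Itga3* was at 120 CPM there against 379 to 1177 elsewhere, *Lama3* at 60.1 against 83.0 to 272, and *Lamb3* at 146 against 255 to 790. Of the 15 tested genes of this list, A3688 was the highest tumor for 7, beside 25.7% of all tested genes. Among genes of the basal-like subtype it was the highest for 5 of 18, a share near that of all genes. One of the 5 was *Trim29*, a p63-associated gene of basal cells, with 774 CPM against at most 5.90 elsewhere. Against the median of the other 8 tumors, *Id4* was 100.3-fold higher in A3688, *Bcl11a* 19.6-fold and *Trp63* 18.6-fold, and ratios this large were reached by 0.183%, 0.860% and 0.891% of all tested genes.

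**Figure D4:**
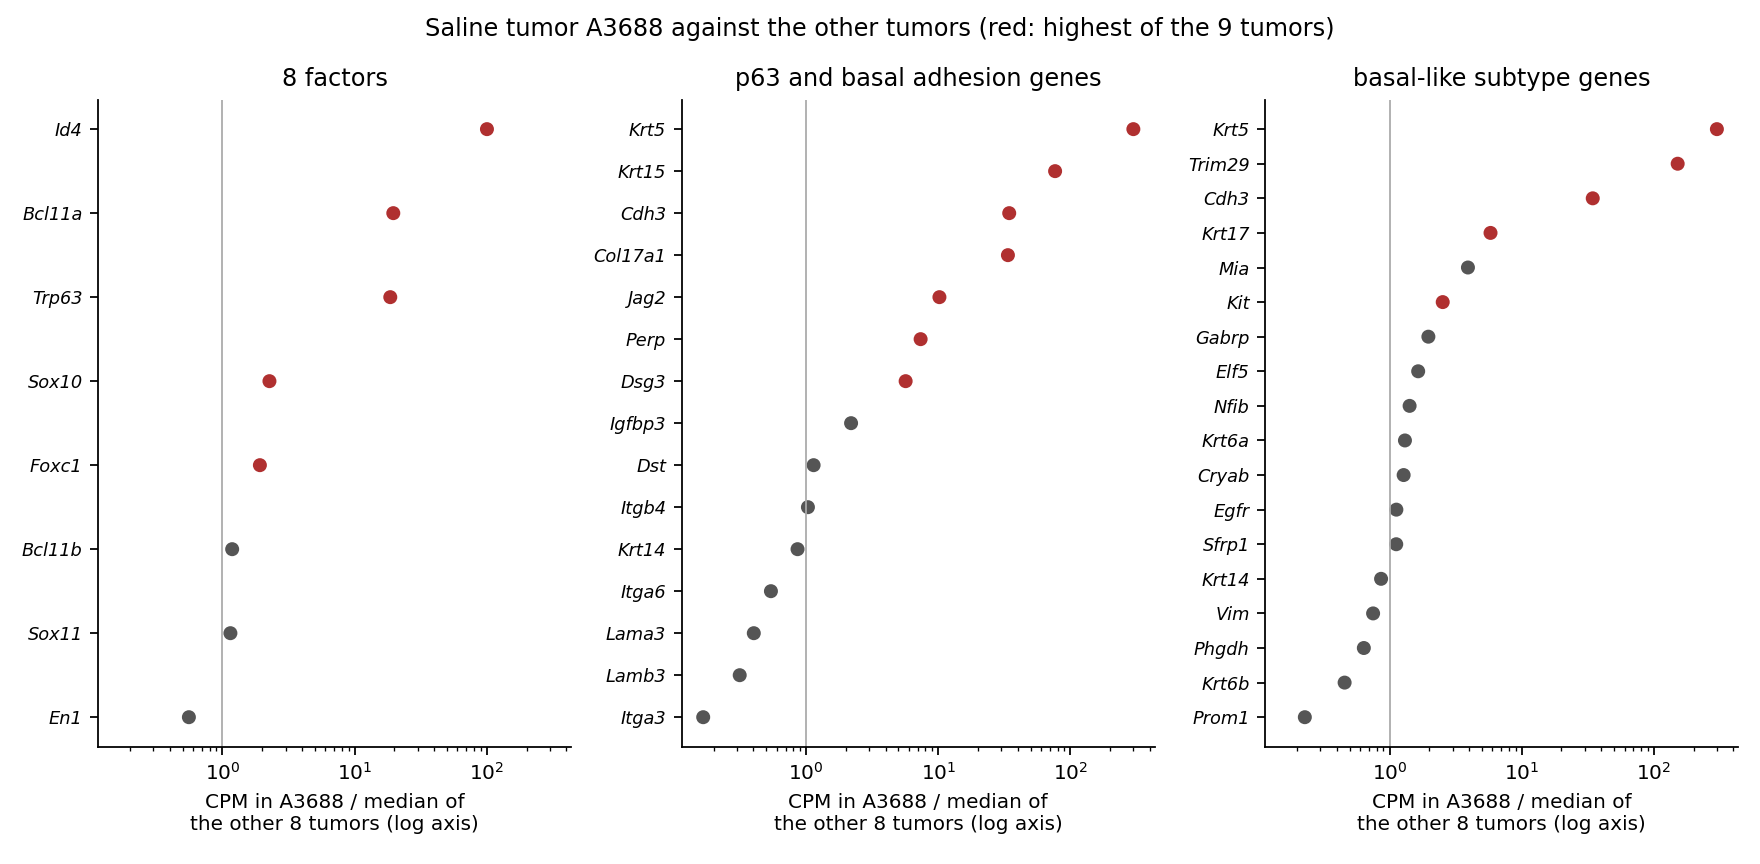
CPM in saline tumor A3688 divided by the median of the other 8 tumors, on a log axis, for the 8 factors, genes of p63 and basal adhesion, and genes of the basal-like subtype, with red points where A3688 was the highest of the 9 tumors. *Id4* is at 100.3, *Krt5* at 299.9 and *Krt14* at 0.863.

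Counted over the 8 factors, edgeR called 0 in each comparison at an adjusted p under 0.05. Of all tested genes it called 0% after i.v. TLZ, 0.00632% after NanoTLZ, 0% between NanoTLZ and i.v. TLZ, and 0.019% for both treated groups together against saline. At an unadjusted p under 0.05 there were 3 after i.v. TLZ (*Bcl11a*, *En1* and *Id4*), where 10.4% of all tested genes reached this. There was 1 after NanoTLZ (*Bcl11a*), against 8.99% of all genes, 0 between the treatments, against 1.68%, and 3 for both together, against 13.1%. Leaving out A3688 gave 3, 2 and 3 in the comparisons with saline, with *Sox11* in the place of *Id4* after i.v. TLZ and beside *Bcl11a* after NanoTLZ. In these fits 9.54%, 6.66% and 9.27% of all tested genes reached this. *En1* is among the 3 of both i.v. TLZ and both groups together, with and without A3688, and is no support for a shift of the factors, since it passed the filter through treated tumors alone. *Bcl11a* is no support for such a shift either, since the study had singled it out from these same tumors.

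By overlap of the groups, *Bcl11a* was lower after i.v. TLZ without overlap, as were 5.2% of all genes, and *En1* was higher, as were 5.99%. After NanoTLZ, *Bcl11a* was lower, as were 8.13% of all genes, and *En1* and *Sox11* were higher, as were 7.82%. All 6 treated tumors lay below all saline tumors for *Bcl11a* and above them for *En1*, which held for 2.66% and 2.81% of all genes. *En1* had to be higher in some treated tumor to pass the filter, and *Bcl11a* had been singled out from these same tumors. The places of both in these counts are therefore descriptions. With A3688 left out, the same genes did not overlap, while the shares of all genes were higher, at 5.33% and 6.02% for both treated groups together. The same 3 saline tumors served both comparisons, which are therefore not independent.

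The median log2 fold change of the 8 factors was -0.75 after i.v. TLZ and -0.48 after NanoTLZ, beside -0.03 and -0.09 over all tested genes. Without A3688 it was 0.10 and 0.37, beside 0.05 and 0.01. Of the 23 tested paralogs and partner proteins, edgeR called 0 in both comparisons, with medians of -0.20 and -0.23, and of -0.19 and -0.27 without A3688. At an unadjusted p under 0.05 there were 2 after i.v. TLZ, below the 10.4% of all tested genes, namely *Id3* at 1.76 and the chromatin remodeling gene *Smarcc1* at -0.81, and 1 after NanoTLZ, against 8.99% of all genes, the histone deacetylase gene *Hdac2* at -1.29. *Hdac2* was at 157 CPM in A3688 and at 67.1 and 62.9 CPM in the other saline tumors, and its value without A3688 was -0.70 (SE 0.28). Without A3688 there were 3 of the 23 in each comparison, beside 9.54% and 6.66% of all tested genes. After i.v. TLZ 1 of these was higher and 2 were lower, and after NanoTLZ all 3 were lower.

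The 18 genes of the basal-like subtype had medians of -0.53 after i.v. TLZ and -0.75 after NanoTLZ, with 0 called by edgeR, and medians of 0.39 and -0.09 without A3688. At an unadjusted p under 0.05, 5 were lower and 1 higher after i.v. TLZ, beside 5.47% and 4.91% of all tested genes. After NanoTLZ 9 were lower and 1 higher, beside 5.49% and 3.51%. Without A3688, 3 were lower and 3 higher with free drug, and 4 were lower and 3 higher with NanoTLZ, beside 4.19% and 5.35%, and 3.26% and 3.39%, of all genes. *Kit*, the receptor of luminal progenitors, was among them, with log2 fold changes of -1.60 (SE 0.28, adjusted p = 0.251) and -1.01 (SE 0.28, adjusted p = 0.552), and so were *Elf5*, a factor of alveolar progenitors, at -1.14 and -0.88, and the GABA receptor subunit gene *Gabrp* at -1.32 and -1.51. For *Kit*, *Elf5* and *Gabrp*, unlike *Id4* and *Trp63*, all 6 treated tumors lay below all 3 saline tumors. *Kit*, *Elf5* and *Gabrp* were the 3 of the 18 listed genes that did so, beside 2.66% of all tested genes. The place of *Kit* in this count is a description, since the study had singled it out from these same tumors. Without A3688 the values were -1.42 and -0.81 for *Kit*, -1.24 and -0.95 for *Elf5*, and -1.45 and -1.62 for *Gabrp*. The values of *Krt5*, *Cdh3* and *Trim29* rested on A3688. For *Krt5* they were -4.49 and -6.29 with it and 2.79 and 1.01 without it. *Trim29* was at -5.56 and -5.76 with it and at 2.33 and 2.14 without it, and *Cdh3* at -2.93 and -4.21 with it and at -0.16 and -1.42 without it.

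**Figure D5:**
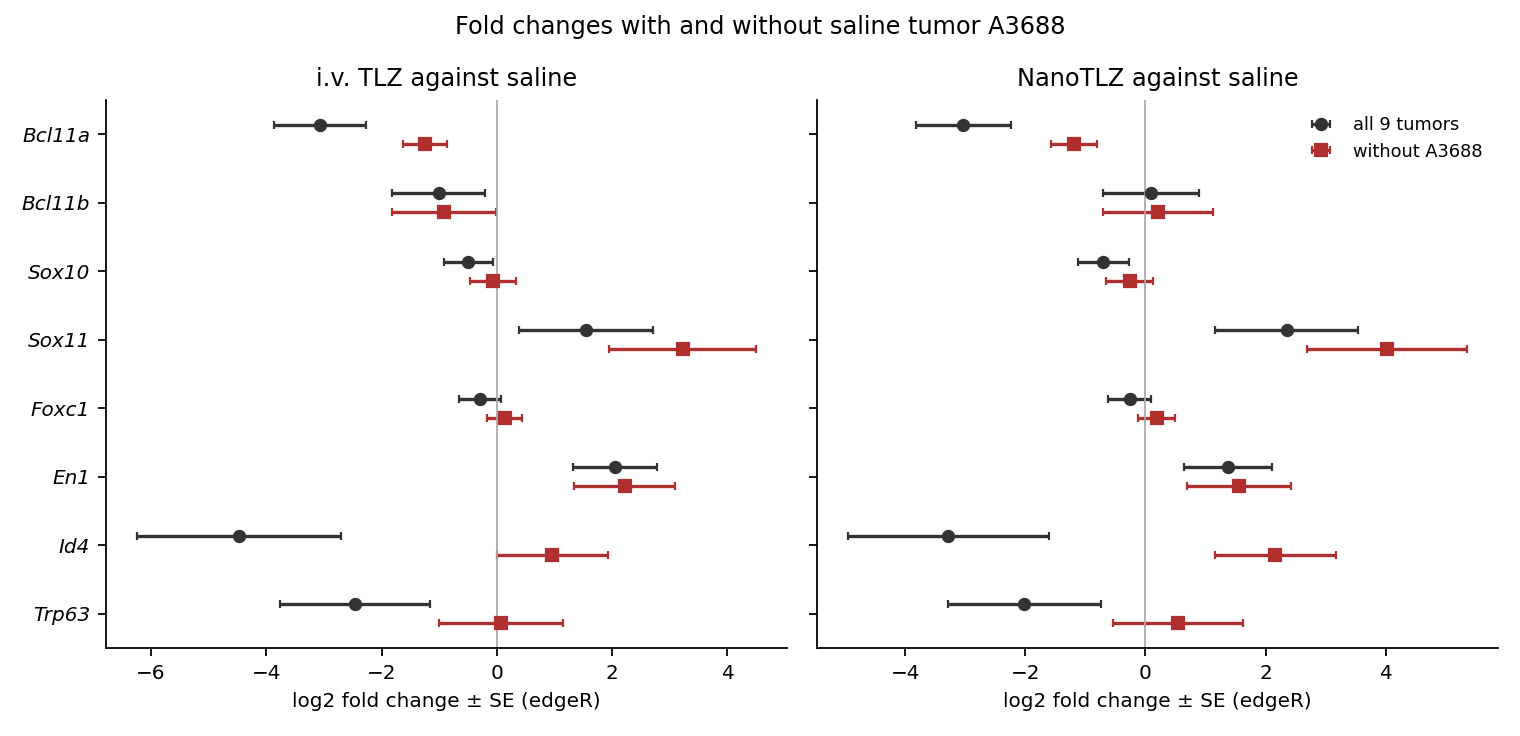
Log2 fold change by edgeR with its standard error for each of the 8 factors in both comparisons with saline, from all 9 tumors (black circles) and without saline tumor A3688 (red squares). *Bcl11a* moves from -3.06 to -1.24 and from -3.03 to -1.19, and *Id4*, *Trp63* and *Foxc1* cross 0.

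Between the treated groups, no factor differed past the threshold in edgeR. The log2 differences, NanoTLZ minus i.v. TLZ, were 1.19 for *Id4* (SE 1.57), 1.10 for *Bcl11b* (SE 0.81), 0.80 for *Sox11* (SE 1.14) and 0.45 for *Trp63* (SE 1.24). *En1* was at -0.68 (SE 0.70), *Sox10* at -0.21 (SE 0.42), and *Foxc1* and *Bcl11a* at 0.03 each. Every adjusted p was 0.9999. The errors leave room for differences of several fold in *Id4*, *Sox11* and *Trp63*, so the 2 forms of the drug are not shown to act alike on them.

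The likeness of *Bcl11a* to *Sox10*, *Trp63*, *Id4* and *Foxc1* was weaker or turned without A3688. Over 9 tumors, the Pearson r of log2 CPM with *Bcl11a* was 0.78 for *Sox10*, 0.73 for *Trp63*, 0.71 for *Id4* and 0.70 for *Foxc1*, with Spearman rho of 0.60, 0.52, 0.40 and 0.32. Over the 8 tumors without A3688 these r were 0.47, 0.19, -0.35 and -0.06. For *Bcl11b* r was 0.29 with A3688 and 0.26 without it, for *Sox11* -0.08 and -0.50, and for *En1* -0.47 and -0.64. *Id4* and *Trp63* had an r of 0.53 with A3688 and -0.28 without it. The tumors share a treatment within each group, so these are descriptions and carry no test.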

How the data were processed

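For 9 tumors, unnormalized read counts of each gene were deposited by the authors. The submitters' processing notes name TopHat2, DESeq2 and mm10. The counting program, annotation and strand setting are not given in the sources used here. Symbols and positions came from GENCODE M21 on GRCm38, which matched 34490 of 35275 identifiers. Genes were filtered by filterByExpr in edgeR 4.0.16 (minimum count 10, minimum total 15), scaled by TMM and fitted in all 9 tumors with 1 coefficient per group by glmQLFit and glmQLFTest, under R 4.3.3. P-values were adjusted over 15821 genes by the Benjamini-Hochberg method. DESeq2 1.42.0 was the main alternative. In simulated counts of 15556 tested genes with 200 changed 8-fold in NanoTLZ, edgeR called 133 of them against saline and 5 unchanged genes. DESeq2, on 15821 genes, called 167 and 56 unchanged genes, and it called 21 for i.v. TLZ against saline, where none was changed. For both treated groups together against saline, edgeR called 0 of the 200, which were changed in NanoTLZ alone. DESeq2 called 102 of them and 55 unchanged genes in that comparison.

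Named genes were the 8 factors, their paralogs and partners, genes of the basal-like subtype, the most abundant genes of other lists and, for each factor, the 2 genes most like it over the tumors. From the list of basal cells and adhesion, genes highest or lowest in A3688 were also named, chosen after seeing the data. Members and lists were chosen with earlier results of these data known. Log2 CPM used a prior count of 2. Counts carry counting error besides the spread between tumors, and reads copied from 1 molecule were not told apart. Start regions and motifs were read from RefSeq. Real-time PCR and protein data were not analysed here. 1 gene of a list is not reported here.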

Additional observations from a re-analysis of the deposited data

How the results depend on the processing

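No paired analysis was possible because no tumor number occurs in the labels of more than 1 group. The number of genes called over the whole table moved most with the tool. After i.v. TLZ edgeR called 0 genes, 5 without a filter on low counts, while DESeq2 called 195 on all 9 tumors and 91 on the groups compared alone. After NanoTLZ the numbers were 1 by edgeR, 6 without a filter, 0 on the groups compared alone, and 100 and 166 by DESeq2. Between the treated groups edgeR called 0, at an unadjusted p under 0.05 266, and DESeq2 3 and 15. For both treated groups together edgeR called 3, 33 without a filter and 1 with at least 10 counts in every tumor, and DESeq2 called 277 on all 9 tumors. The cause was not tested. Leaving out 1 tumor at a time gave 0 genes in every fit after i.v. TLZ and between the treatments, 0 to 3 after NanoTLZ (3 without A3673, 0 without A3685, B3700 or C3669) and 0 to 18 for both together (18 without A3673, 1 without C3519, 0 without A3685 or any of the other 5 treated tumors).

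*Bcl11a* kept its direction against saline in every alternative. It was called by DESeq2 on all 9 tumors in these comparisons (adjusted p of 0.000636 for both treated groups together), by DESeq2 on the groups compared alone (0.0393 for i.v. TLZ, 0.0217 for NanoTLZ) and by edgeR without a filter for both together (0.0438), and over all alternatives its adjusted p spanned 0.00752 to 0.779 for i.v. TLZ, and for NanoTLZ it spanned 0.0151 to 0.901. Every fit that left out 1 tumor was by edgeR, so the DESeq2 calls of *Bcl11a* all include A3688. Leaving out 1 tumor gave -3.55 to -1.24 for i.v. TLZ, -3.52 to -1.19 for NanoTLZ and -3.53 to -1.22 for both together, with A3688 the tumor behind the smaller ends. Direction turned in 21 of 288 fits that left out 1 tumor and in none of 235 other alternatives, of which 6 brought *Bcl11a* past the threshold. Against saline, the leave-one-out ranges that crossed 0 after i.v. TLZ were -0.32 to 3.22 for *Sox11*, -0.51 to 0.14 for *Foxc1*, -5.43 to 0.96 for *Id4* and -3.30 to 0.070 for *Trp63*. After NanoTLZ they were -0.34 to 0.64 for *Bcl11b*, -0.48 to 0.19 for *Foxc1*, -3.85 to 2.16 for *Id4* and -3.58 to 0.54 for *Trp63*. For both together they were -1.01 to 0.073 for *Bcl11b*, -0.50 to 0.16 for *Foxc1*, -4.45 to 1.56 for *Id4* and -3.01 to 0.31 for *Trp63*. Between the treatments they were -0.0034 to 0.078 for *Bcl11a*, -0.46 to 0.012 for *Sox10*, -0.13 to 0.25 for *Foxc1*, -1.10 to 0.43 for *En1* and -1.13 to 1.33 for *Trp63*.

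Within these counts, *En1* is limited by depth and could not be fitted with at least 10 counts in every tumor. DESeq2 gave no p-value for *Id4* against saline. A3688 sets the size of the saline mean for *Bcl11a*, *Id4* and *Trp63*, and with 3 tumors per group its place among untreated tumors of this model cannot be told from these data. Leaving it out of the counts of factors and of the gene lists was chosen after seeing the data.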

Other observations

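For each factor, the tested genes whose log2 CPM followed it most closely over the 9 tumors were found among all 15821, which share libraries and are not independent, so the values are descriptions. *Sox10* was followed by the polarity gene *Scrib* (Pearson r 0.98, Spearman rho 0.98) and by *Arhgap39* (r 0.98), and without the 2 tumors farthest from its median r was 0.95 and 0.93. *Bcl11a* was followed by the mitophagy receptor gene *Fundc1* (r 0.98, rho 0.78) and by *Fancd2*, a gene of DNA crosslink repair (r 0.97, rho 0.68), and without A3688 and A3673 r was 0.78 and 0.71. *En1* was followed by the stress gene *Gadd45g* (r 0.96, rho 0.97, 0.94 without 2 tumors) and *Id4* by the Krüppel-like factor gene *Klf15* (r 0.96, rho 0.93, 0.98 without 2 tumors). The closest genes of *Trp63*, *Foxc1*, *Sox11* and *Bcl11b* were *Ube4a*, *Cracr2b*, *Cpne8* and *Pskh1*, with r of 0.95, 0.95, 0.95 and 0.94.

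Other gene lists had the following values with and without A3688. All 11 tested skeletal muscle genes had negative log2 fold changes in both comparisons with saline, with medians of -5.10 and -4.86, and A3688 was the highest tumor for 10 of them. Without it the medians were -3.61 and -3.38, with 10 and 11 negative. All 10 fibroblast genes had positive values after i.v. TLZ and 9 after NanoTLZ, with medians of 0.65 and 0.59, and edgeR called 0 of them. At an unadjusted p under 0.05, 1 was higher with free drug and 2 with NanoTLZ, beside 4.91% and 3.51% of all tested genes. Without A3688 all 10 were positive in both, with medians of 0.79 and 0.52. In these fits 0 and 1 were higher at an unadjusted p under 0.05, beside 5.35% and 3.39%. The 11 tested luminal progenitor genes had medians of -1.08 and -1.01, with 0 called. At an unadjusted p under 0.05, 5 were lower with free drug and 3 with NanoTLZ, beside 5.47% and 5.49% of all tested genes. Without A3688 there were 7 and 6, beside 4.19% and 3.26%, with medians of -1.42 and -1.38. *Kit* and *Elf5* are also in the list of the basal-like subtype, and the study had singled out *Kit* from these same tumors.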
